A study of Mus musculus with 2 samples.

Results

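The genes of the Polycomb repressive complexes were followed in primordial germ cells (PGCs), the embryonic precursors of eggs and sperm, with and without over-expression (OE) of Klf9. The 10 members were taken by gene symbol from knowledge of the complexes. They were the PRC2 genes Ezh1, Ezh2, Eed, Suz12 and Jarid2 and the PRC1 genes Rnf2, Pcgf6, Bmi1, Cbx2 and Cbx7. All 10 had a row of their own in the Klf9-OE file, but only 9 had one in the control file, where Bmi1 was merged with the neighbouring gene Commd3. The files shared 23320 gene symbols, of which 18742 had an FPKM, the read coverage per length of transcript and per sequencing depth, over 0 in a library.

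The cells came from E13.5 embryos of MCH females mated with Oct4-deltaPE-GFP males, whose transgene marks germ cells, and were sorted by GFP from genital ridges of both sexes. They were infected at an MOI of 5 with a lentivirus of a control vector or of the CSII-EF vector with the Klf9 coding region (Klf9-OE), and kept for 1 day in culture. The EF promoter of that vector is not specific to germ cells, and which of several control vectors was used for the control library is not given in the sources used here. The labels describe GS medium with bFGF, whereas the study describes a culture without it. Each condition had 1 library, so no difference has a replicate check, and the files hold no read totals. The errors given are 95% intervals computed by Cufflinks, which cover the estimation of a value within a library and not the difference between cultures.

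Polycomb proteins keep developmental genes silent by marking their chromatin. PRC2 methylates histone H3 at lysine 27 through EZH2 or its paralogue EZH1, which both need EED and SUZ12. PRC1 ubiquitinates histone H2A through RNF2 (RING1B) or RING1, and its PCGF and CBX subunits decide which form of the complex is made. In the mouse germ line Polycomb complexes are known for holding back somatic genes and for timing the entry into meiosis.

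Klf9 had an FPKM of 2.27 in the control library (95% interval 1.97 to 2.57) and 80.8 in the Klf9-OE library (77.0 to 84.5). The labelled cell type was checked with 12 germ cell markers, which ranged from 5.42 to 387 FPKM in the control library and from 4.34 to 378 in the Klf9-OE library. Their summed FPKM was 1615 and 1378. With intervals that did not overlap, 9 of the 12 were lower and 2 (Sox2 and Dazl) higher in Klf9-OE. The shares were 14.4% and 11.2% of all 18626 genes compared. They were 23.2% and 14.2% among genes with a mean FPKM of at least 10, a level that 9 of the 12 reached. For 11 markers of gonad somatic cells the summed FPKM was 29.0 and 40.4, with Star listed at 0 in control and Cyp17a1 listed at 0 in Klf9-OE. Of the somatic markers Amh (5.99 and 9.29 FPKM) and Wt1 (3.41 and 5.64) were higher past 1.5-fold, Star had 0 and 2.39, and Sox9 (2.04 and 1.09) was lower, as was the germ cell marker Dppa3 (294 and 179). The sums were 19.9 and 30.2 for 4 endothelial markers and 4.14 and 5.33 for 4 macrophage markers. Most of the sum of the endothelial list came from 1 gene, Pecam1, with 16.8 and 24.2 FPKM. Whether endothelial or germ cells expressed Pecam1 here was not tested, so this sum need not stand for endothelial cells. Kdr had 0.367 and 0.465 with intervals that overlapped. Most of the macrophage sum came from Cd68, with 3.69 and 4.11 FPKM and intervals that overlapped. Cdh5, an endothelial cadherin, had 1.995 and 5.09 FPKM, and Csf1r, a macrophage receptor, had 0.307 and 1.18. In the opposite direction, the endothelial receptor Tek had 0.735 and 0.439, and the macrophage markers Adgre1 and Ptprc were below 0.1 FPKM in both libraries. In such bulk samples, fewer cells of a type and less RNA per cell cannot be told apart.

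The promoter of Ezh1 is shown because Ezh1 was the only member whose intervals did not overlap between the libraries, and that of Suz12, a partner of Ezh1 in PRC2 whose intervals overlapped, because it held the most GC boxes of the PRC2 members. KLF9 is a zinc finger protein that binds GC-rich boxes. The 250 bases before the RefSeq start are given on the strand of the gene, 5′ to 3′, on GRCm38.p6, the build also called mm10. They cover chr11:101226464-101226713 (minus strand) for Ezh1 and chr11:79992856-79993105 (plus strand) for Suz12. Capitals mark matches, on either strand, to the GC box GGGCGG, to CACCC, or to GGGCGTGG, a GC box of the kind bound by KLF proteins.
Ezh1: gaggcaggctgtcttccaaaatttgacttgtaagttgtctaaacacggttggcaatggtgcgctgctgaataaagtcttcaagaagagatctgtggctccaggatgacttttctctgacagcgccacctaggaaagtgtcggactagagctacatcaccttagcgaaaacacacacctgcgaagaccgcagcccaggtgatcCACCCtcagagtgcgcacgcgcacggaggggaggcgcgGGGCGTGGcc
Suz12: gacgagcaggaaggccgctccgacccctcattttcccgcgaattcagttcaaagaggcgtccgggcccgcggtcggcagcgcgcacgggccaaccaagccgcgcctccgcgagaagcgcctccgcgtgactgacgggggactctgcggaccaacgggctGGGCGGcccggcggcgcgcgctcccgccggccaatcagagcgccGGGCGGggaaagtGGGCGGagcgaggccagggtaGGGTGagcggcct

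The Ezh1 window held 1 CACCC match and 1 GGGCGTGG match, with no overlap between them. The Suz12 window held 3 GGGCGG matches and 1 CACCC match. GGGCGTGG was found in 4.79% of 32851 promoter windows of the same length, CACCC in 52.0% and GGGCGG in 32.7%. Windows were found for 9 of the 10 members, and GGGCGTGG was also present in those of Rnf2 and Cbx7, whose intervals overlapped between the libraries. The windows of Bmi1 and Rnf2 held 6 and 2 matches to GGGCGG, and that of Ezh2 held 1 CACCC match. A match describes the letters of the window, and binding was not measured here.

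Of the 5 PRC2 members, Ezh1 was the one whose intervals did not overlap, being lower in Klf9-OE, as were 23.2% of all genes with a mean FPKM of at least 10. Ezh1, the alternative methyltransferase of PRC2 (chromosome 11, 101191115 to 101226463 of mm10, minus strand), had an FPKM of 37.3 in the control library (35.3 to 39.2) and 27.5 in the Klf9-OE library (26.6 to 28.4). The Klf9-OE value was 0.738 times the control value, and the bounds of the intervals allow 0.679 to 0.804. The log2 fold change, calculated with a pseudocount of 0.1, was -0.44, and the intervals were clear of each other.

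Ezh2, the main methyltransferase of dividing cells (chromosome 6, 47530235 to 47595030, minus strand), had an FPKM of 48.4 (46.1 to 50.7) in control and 51.5 (49.1 to 53.9) in Klf9-OE. Eed, the subunit that reads methylated lysine 27 (chromosome 7, 89954654 to 89980976, minus strand), had 65.2 (61.7 to 68.7) and 68.0 (64.5 to 71.5). Suz12, which holds the core of the complex together (chromosome 11, 79993106 to 80034123, plus strand), had 39.8 (37.7 to 41.8) and 41.2 (39.2 to 43.2). These 3 core genes were each slightly higher in Klf9-OE, by ratios of 1.04 to 1.06, with intervals that overlapped. For Ezh2 the overlap was narrow, and each value lay outside the interval of the other library. The latter was also so for Jarid2, Pcgf6 and Cbx7, described below. Jarid2 is an accessory subunit that helps PRC2 reach its targets (chromosome 13, 44729810 to 44921643, plus strand). Its FPKM was 51.2 (49.5 to 52.9) and 53.2 (51.2 to 55.1), a ratio of 1.04 with overlapping intervals. These loci are those of the control file, and in the Klf9-OE file the lowest coordinate was 44730774 for Jarid2 and 47530274 for Ezh2.

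Among the PRC1 genes that could be compared, no intervals separated the libraries. Rnf2, the main H2A ubiquitin ligase (chromosome 1, 151469406 to 151500823, minus strand), had an FPKM of 34.1 (32.3 to 35.9) in control and 34.5 (33.3 to 35.7) in Klf9-OE. Pcgf6, the PCGF subunit of the variant complex PRC1.6 (chromosome 19, 47033619 to 47050845, minus strand), had 31.7 (29.6 to 33.7) and 34.0 (31.98 to 35.93). The ratio was 1.01 for Rnf2 and 1.07 for Pcgf6.

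The chromodomain subunits of canonical PRC1, which bind methylated lysine 27, had the lowest levels of the members in both libraries. Cbx2 (chromosome 11, 119023029 to 119031270, plus strand) had an FPKM of 14.9 (12.5 to 17.3) in control and 13.7 (12.8 to 14.6) in Klf9-OE. Cbx7 (chromosome 15, from 79915807, minus strand) had 11.0 (10.1 to 11.8) and 11.9 (11.1 to 12.7). The highest coordinate of the Cbx7 locus, the start side on the minus strand, was 79932646 in the control file and 79971247 in the Klf9-OE file. The promoter window of Cbx7 (79932647 to 79932896) lay directly before the start of the control locus only. The Cbx2 value of the control library was the least precise of the members, with an interval of 16.1% on each side, whereas the other values had 3.29% to 7.73%.

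Bmi1, the PCGF subunit of canonical PRC1 (chromosome 2, 18677018 to 18686629, plus strand), had an FPKM of 27.3 (26.0 to 28.6) in the Klf9-OE library. In the control library, Bmi1 and Commd3 were quantified as 1 locus with an FPKM of 58.3 (54.9 to 61.8). The Commd3 row of the Klf9-OE file ended 801 bases before that of Bmi1 began. Commd3 alone had 36.3 (33.8 to 38.9) in Klf9-OE, so that the summed value of the 2 genes was 63.6 (59.8 to 67.5, from the summed bounds). The control value cannot be divided between the genes, and no fold change is given for Bmi1.

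**Figure D1:**
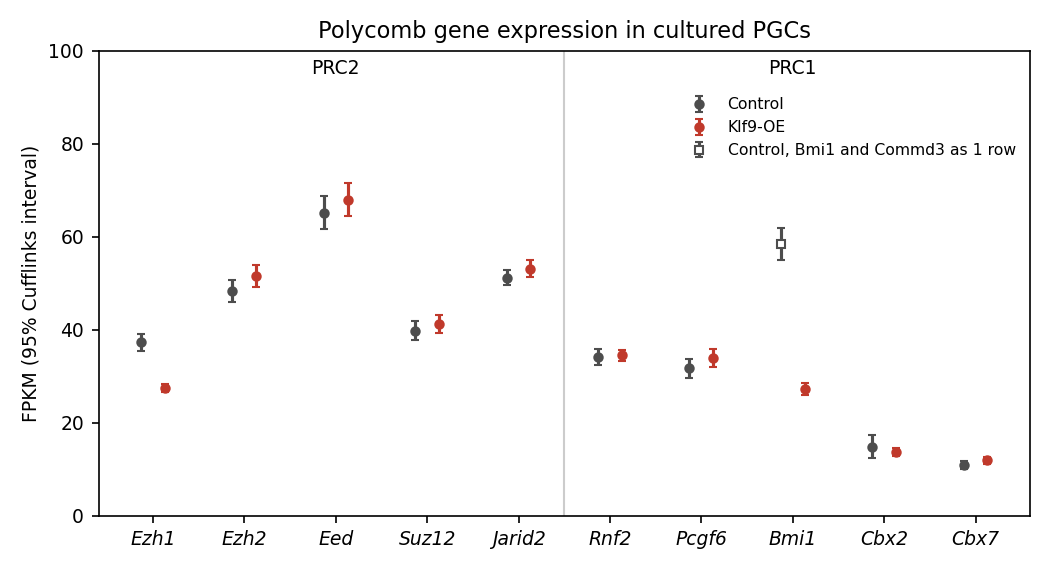
FPKM of the 10 Polycomb genes in the control library (grey) and the Klf9-OE library (red), with bars for the 95% Cufflinks interval; the open square is the control value of Bmi1 and Commd3 as 1 locus. The bars of Ezh1 are clear of each other at 37.3 and 27.5, and those of the other 8 comparable genes overlap.

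Of the 9 comparable members, 1 was lower and 0 were higher in Klf9-OE with intervals that did not overlap. Over 18626 genes with a single row in each file, the share was 14.4% lower and 11.2% higher. All 9 members had a mean FPKM of at least 10, and over the 6728 genes above that level the share was 23.2% lower and 14.2% higher. None of the 9 differed by 1.5-fold in either direction. That fold was passed by 15.1% of 18742 genes in the lower direction and by 16.1% in the higher direction, and by 4.83% and 3.23% of the 6747 genes with a mean FPKM of at least 10. The median log2 fold change of the 9 members was 0.05, beside -0.02 over all 18742 genes and -0.03 over the 6747 genes. When the files were rescaled to the same sum of FPKM, Ezh2 and Jarid2 were higher and Ezh1 lower without overlap. That is 2 higher and 1 lower in place of 0 and 1. This rescaling multiplied every Klf9-OE value by 1.04 and moved the median of all 18742 genes from -0.02 to 0.04. The shares over all genes under it are not given here, so the rescaled counts have no background beside them.

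The members lay in the upper part of the range of expression. In the control library, from Cbx7 to Eed, they were at percentiles 65.7 to 92.6 of the 18742 genes by FPKM, a level per length of transcript. In Klf9-OE, the same genes bounded the range, at 67.4 and 93.3. In both libraries the order began with Eed, Jarid2, Ezh2 and Suz12 and ended with Cbx2 and Cbx7. Jarid2 and Ezh2, which followed Eed, overlapped each other in both libraries. Ezh1 was the fifth of 9 in the control library, where its interval overlapped those of its neighbours Suz12 and Rnf2. In the Klf9-OE library it was the seventh of 10, below Rnf2 and Pcgf6 without overlap and next to Bmi1 with overlap.

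Ratios within a library do not depend on the scaling between libraries. The FPKM of Ezh1 relative to Ezh2 was 0.770 in the control library (0.697 to 0.851 from the interval bounds) and 0.534 in the Klf9-OE library (0.494 to 0.578), ranges that were clear of each other. Ezh1 thus made up 43.5% of the summed FPKM of the EZH genes in control and 34.8% in Klf9-OE, and the sum itself was 85.6 and 79.0. The ratio of Ezh2 to Eed was 0.742 (0.670 to 0.822) and 0.758 (0.687 to 0.836), and that of Suz12 to Eed was 0.610 (0.549 to 0.678) and 0.607 (0.548 to 0.671). The ranges of both ratios overlapped between the libraries. The ratio of Cbx7 to Cbx2 was 0.739 (0.587 to 0.948) and 0.865 (0.759 to 0.986), with ranges that overlapped. Pcgf6 relative to Bmi1 could be calculated in the Klf9-OE library only, where it was 1.24 (1.12 to 1.38).

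**Figure D2:**
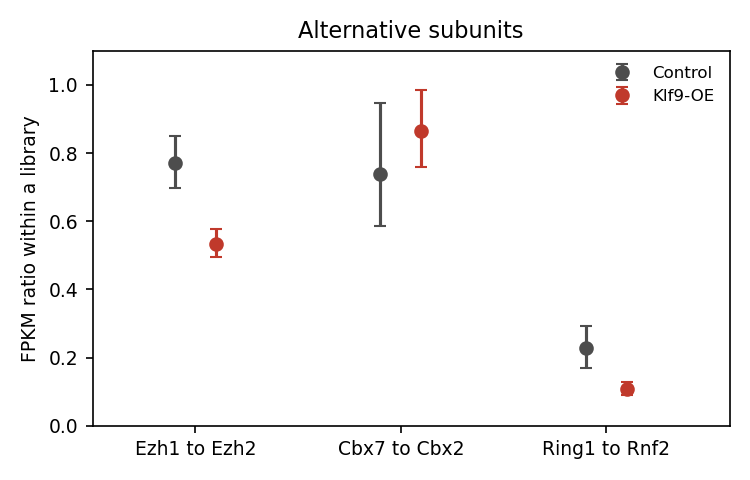
Ratio of FPKM within a library for pairs of alternative subunits, in control (grey) and Klf9-OE (red), with bars for the range that the interval bounds of both genes allow. The ranges of Ezh1 to Ezh2 (0.770 and 0.534) and of Ring1 to Rnf2 (0.228 and 0.107) are clear of each other, and those of Cbx7 to Cbx2 overlap.

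The kind of transcript model behind a value differed between the libraries for some members, and Ezh1 was among them. Cufflinks assembled transcripts in each library separately, and a row carries either a number given by the assembly or the annotated gene name. All 9 comparable members had an assembled model in the control library. In Klf9-OE, Ezh1, Rnf2 and Cbx2 had the annotated model and the other 6 an assembled one. Among genes with a mean FPKM of at least 10, 1095 were assembled in control and annotated in Klf9-OE like Ezh1. Their median log2 fold change was -0.07, the central 90% lay between -0.62 and 0.20, and 30.8% were lower without overlap of the intervals. For the 3835 genes with an assembled model in both libraries, the median was -0.03 and 22.7% were lower without overlap. A value as low as that of Ezh1 or lower was found for 9.59% of the 1095 genes and for 7.57% of all 6728 genes. Rnf2 and Cbx2, with the same change of model, had log2 fold changes of 0.02 and -0.12. The part of the model in the difference of Ezh1 was not tested. The part of the germ cell and gonad somatic markers that moved between the libraries was not tested either.

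**Figure D3:**
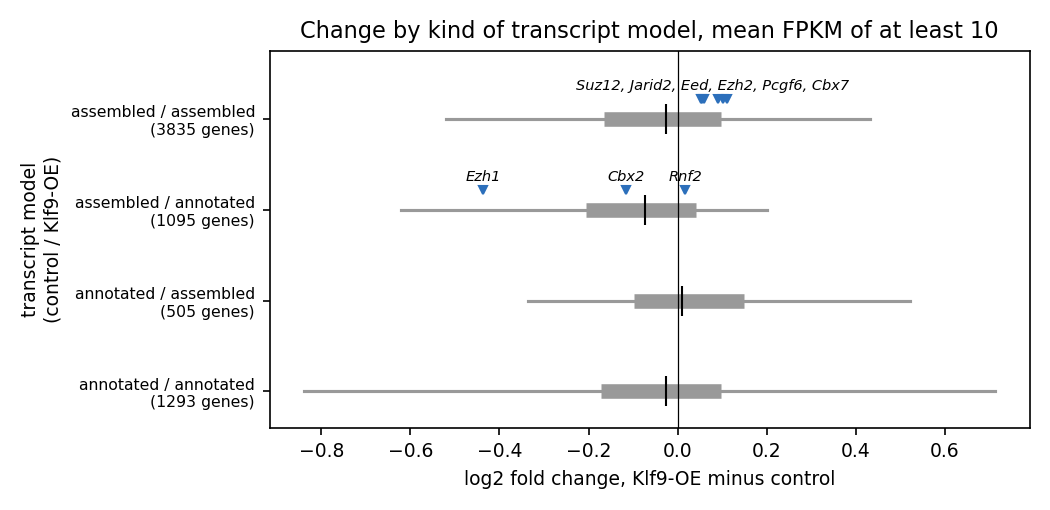
Log2 fold change (Klf9-OE minus control; vertical line at 0) of genes with a mean FPKM of at least 10, by the kind of transcript model in control and in Klf9-OE; thin lines span the 5th to 95th percentile, thick bars the quartiles, black ticks the median, and blue triangles the Polycomb members. Ezh1, at -0.44, lies below the quartiles of its class but inside the thin line, which ends at -0.62.

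The wider set of Polycomb genes gives the setting of these members. Of 35 further subunits, 31 could be compared, and 8 of them were lower and 3 higher in Klf9-OE without overlap of the intervals, with a median log2 fold change of -0.10. Over all 18626 genes compared, the shares were 14.4% lower and 11.2% higher. They were 23.2% and 14.2% among genes with a mean FPKM of at least 10, a level that 24 of the 31 subunits reached. The counts lay near the second pair of shares, and the lower count lay above the first. After rescaling to the same sum of FPKM, which raised every Klf9-OE value, 6 were lower and 7 higher. The shares over all genes under that rescaling are not given here. The remaining 4 subunits shared a row with another gene in at least 1 file. Those past 1.5-fold were Ring1, Pcgf2 and Phf1. Ring1, the paralogue of Rnf2, had an FPKM of 7.77 (6.06 to 9.49) in control and 3.71 (3.18 to 4.23) in Klf9-OE, so that its ratio to Rnf2 was 0.228 (0.169 to 0.293) and 0.107 (0.0891 to 0.127). Pcgf2 (MEL18), the paralogue of Bmi1, had 18.0 (16.4 to 19.6) and 12.0 (11.06 to 12.97). Phf1, an accessory subunit of PRC2 that binds methylated lysine 36, had 8.27 (7.501 to 9.043) and 15.3 (13.9 to 16.6). Each of these 3 genes had an assembled model in both libraries, but models assembled separately need not be the same, as the locus of Cbx7 shows. The smaller differences given next were named after their values were seen. Rbbp4, a histone-binding subunit of PRC2, had 165 (158 to 172) and 194 (186 to 202). Scml2, a germ cell partner of PRC1, had 150 (146 to 155) and 179 (174 to 184). Both were higher without overlap of the intervals. Lower without overlap were Epop (0.770 times control), Bcorl1 (0.775), Phf19 (0.783), Auts2 (0.853), Kdm2b (0.910) and, described below, Hdac2.

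The Polycomb genes with the highest mean FPKM were general chromatin factors that the complexes share with others. Hdac2, a histone deacetylase, had 246 (237 to 255) in control and 195 (192 to 199) in Klf9-OE, with the same change of model as Ezh1. Rbbp7, a histone-binding core subunit of PRC2, had 202 (193 to 211) and 189 (180 to 197), and Cbx3, a heterochromatin protein found in PRC1.6, had 197 (188 to 206) and 188 (179 to 197). The intervals of Rbbp7 and Cbx3 overlapped between the libraries.

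**Figure D4:**
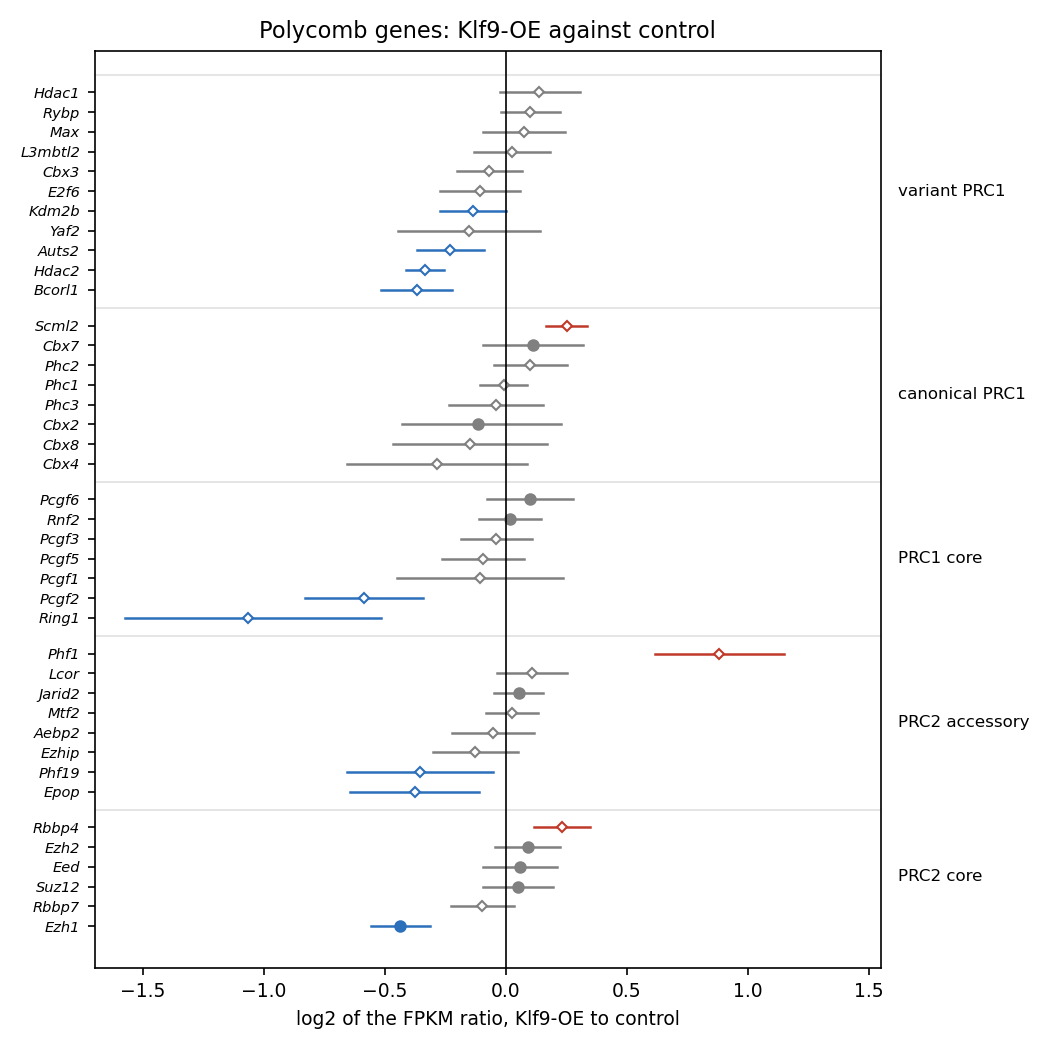
Log2 of the FPKM ratio of Klf9-OE to control for 40 Polycomb genes, with lines for the range that the interval bounds allow; filled circles are the members and open diamonds the other subunits, blue where the Klf9-OE interval lies below that of control, red where it lies above, and grey where they overlap. Ezh1 is the one coloured member, and Ring1 (0.477 times control) and Phf1 (1.84 times) lie farthest from 0.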

How the data were processed

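RNA-seq of 1 control and 1 Klf9-OE library was used. Single-end reads of 51 bases were aligned by the authors to mm10 with TopHat2 and Bowtie, and the deposited FPKM values with their 95% bounds were estimated by Cufflinks, which assembled transcripts in each library separately. The versions are not given in the sources used here. From these values, FPKM was summed over rows of the same symbol, and log2 fold changes used a pseudocount of 0.1. Loci in the files count from 0 and are given from 1, and where the files differ the locus is that of the control library unless stated. Intervals were compared for genes with 1 row per file and an estimate that had not failed. The range of a ratio divides the lower bound of one value by the upper bound of the other, and the reverse. Named beyond the members are Klf9, genes of the lists past 1.5-fold with an FPKM of at least 1 in a library and separate intervals, and the 3 Polycomb genes with the highest mean FPKM. Genes named outside this rule, among them the markers listed at 0, were chosen after their values were seen. With 1 library per condition, no test across samples exists, and no p-value is given. The members and lists were chosen with earlier results of these data known. Epop and Ezhip were matched by their older symbols. 1 further list of cell type markers is not reported here. The steps were tested on simulated data. Calculations used Python 3.11.15, numpy 2.4.6, pandas 2.3.3 and matplotlib 3.10.9.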

Additional observations from a re-analysis of the deposited data

How the results depend on the processing

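The log2 fold change of Ezh1 ranged from -0.44 to -0.37 over pseudocounts of 0.01 and 1, rescaling by the upper quartile or by the sum of FPKM, and a minimum FPKM of 1. No member with a value under an alternative changed the sign of its fold change, but none of these alternatives could have changed it. The rescalings multiplied the Klf9-OE values by 1.01 and 1.04, too little to bring the lower members Cbx2 and Ezh1 up to control. Ezh1 was lower without overlap of the intervals under both rescalings and with the Klf9-OE intervals widened by the square root of 2. The pseudocounts and the minimum FPKM do not enter the comparison of intervals, so they could not change it. The rescaling factors were too small to change it for Ezh1. Under both rescalings 0 members passed 1.5-fold, and therefore 0 passed 2-fold. Their factors were too small to bring any member to 1.5-fold, so this count could not have changed. With rescaling to the same sum, which raised every Klf9-OE value, 2 members were higher without overlap. With only genes that had the same kind of transcript model in both libraries, an alternative chosen after seeing the data, Ezh1, Rnf2 and Cbx2 dropped out and 0 of the remaining 6 were lower, since the setting removes Ezh1 itself. The median of the members was between 0.05 and 0.12 in all settings in which it was calculated. Widening the Klf9-OE intervals left 6 of the 8 lower and 3 of the 3 higher further subunits. No paired analysis was possible because each condition had 1 library, and no replicate could be left out. The width of the intervals limits what can be seen, and it was largest for Cbx2 in control, at 16.1% on each side.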

Other observations

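The genes that counter Polycomb and some of its classical targets were also read, and the genes named here were chosen after their values were seen. Of 6 genes of the H2A deubiquitinase complex and the lysine 27 demethylases, 1 was higher and 0 lower without overlap of the intervals. Over all 18626 genes compared, the shares were 11.2% higher and 14.4% lower. The higher gene was Kdm6b, a demethylase, with an FPKM of 7.72 (7.25 to 8.20) in control and 9.91 (9.43 to 10.4) in Klf9-OE. Of 4 cell cycle inhibitors that Polycomb represses in somatic cells, 2 were higher and 0 lower without overlap. At a mean FPKM of at least 10, which 3 of the 4 had, the shares over all genes were 14.2% higher and 23.2% lower. Cdkn1a had 12.4 (11.3 to 13.6) and 14.9 (13.7 to 16.1), and Cdkn1c had 16.1 (14.7 to 17.6) and 21.2 (19.6 to 22.8). Cdkn2a, the target best known from Bmi1, had 50.7 (46.9 to 54.6) and 55.9 (52.1 to 59.8), with intervals that overlapped.

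Lineage regulators that carry methylated lysine 27 in pluripotent cells stayed low in both libraries. Of 24 such genes 23 were above 0 in at least 1 library, their FPKM was at most 6.21 in control and 7.47 in Klf9-OE, and 7 of the 23 reached 1 FPKM in a library. Past 1.5-fold were 7 in each direction, beside 15.1% lower and 16.1% higher over all genes, and a fold between values near 0 carries little weight. Intervals did not overlap for 3 of the 23, with 1 lower and 2 higher, beside 14.4% and 11.2% of all 18626 genes compared. Msx1, a homeobox gene, had 4.21 (3.15 to 5.27) and 0.931 (0.670 to 1.19), with an assembled model in control and the annotated model in Klf9-OE. Gata4, which gonad somatic cells also express, had 6.21 (5.67 to 6.74) and 7.47 (6.935 to 7.998), and Eomes had 0.364 (0.234 to 0.494) and 0.795 (0.624 to 0.966). The 14 germ cell genes that PRC1.6 binds in embryonic stem cells were high in both libraries, from 60.6 to 541 FPKM in control and from 58.9 to 557 in Klf9-OE. Their median log2 fold change was 0.02, with 2 lower and 3 higher without overlap. Among all genes with a mean FPKM of at least 10, 23.2% were lower and 14.2% higher. More of the 14 were higher than lower, the reverse of these shares, in counts too small to weigh.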
